A study of Mus musculus with 20 samples.

Results

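The liver transcriptomes compared here are those of 4 male DBA/2J mice (DBA), a strain the series calls susceptible to diabetes, and 4 male C57BL/6 mice (B6), a strain it calls lean and resistant. They were selected by their strain label, and make up 8 of the 20 mice of the series. Diet did not differ between DBA and B6: both ate a fat-rich diet (45% fat), and their livers represent week 6, a time the labels give once as age and once as diet week. Both are inbred strains without an engineered allele, the substrain of C57BL/6 is not given, and each mouse has 1 Agilent array with 1 dye. The other 12 mice (NZO, C3H and 129Ola) serve only to estimate the spread between mice.

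The liver takes up glucose and fatty acids after a meal, stores them as glycogen and triglyceride, and exports glucose, lipoproteins and bile acids. Insulin, the fatty acid sensor PPARA and the xenobiotic sensors CAR and PXR set much of this programme through transcription. Inbred strains also differ at fixed alleles, copy numbers and the histocompatibility haplotype, and a transcript can then differ whatever the diet does.

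Levels are log2 of the processed spot signal minus the 75th percentile of its array, so that 0 is the 75th percentile and a difference of 1 is 2-fold. Values per mouse follow the order DBA 5, 9, 8 and 15, and B6 9, 10, 11 and 15, the animal numbers of the labels. Differences are DBA minus B6 with their standard error (SE) from the limma fit, with 4 mice per strain, and a gene counts as changed below an adjusted p of 0.05. Hepatocyte markers were at the top of the scale in both strains, with list means of 9.42 to 9.66 in DBA and 9.38 to 9.56 in B6, and 0 of 14 passed the threshold in either direction (1 higher without B6 15). Per array, 50.2 to 53.4% of spots were well above background in DBA and 51.9 to 59.1% in B6. Across genes, every mouse correlated more closely with its own strain (r at least 0.976 within DBA and 0.983 within B6) than with the other (at most 0.971). Before any comparison, DBA 5 and B6 15 stood apart. DBA 5 had the lowest mean level of acute phase and iron genes in its strain, and B6 15 the highest of acute phase, histocompatibility class I and class II genes in its own. DBA 5 was also the lowest mouse for the hepcidin genes Hamp and Hamp2, and the acute phase and iron mean was not recomputed without them. DBA 8 and DBA 15 were scanned on a day with no B6 array, and no slide held both strains. DBA 9 shared a scan day with B6 10 and B6 15, and DBA 5 with B6 9 and B6 11.

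The probes below are those of some of the genes with a strain contrast described in this text. Those of Serpina3i, Ntrk2, H2-Ea-ps, Mgst3 and Folr2 are printed whole, with 60 bases, and those of the other genes as their first 30 bases. In mm9, per the array files, the probes lie as follows: Nuggc at chr14:66267169-66267228 on the plus strand, Ctse at chr1:133571990-133572049 on the plus strand and Ifi202b at chr1:175892789-175892848 on the minus strand. The Cebpe probe lies at chr14:55329200-55329259 on the minus strand, Trim12a at chr7:111448499-111448558 on the minus strand and Serpina12 at chr12:105267099-105267158 on the minus strand. The Serpina3i probe lies at chr12:105504738-105504797 on the plus strand, Ntrk2 at chr13:58979563-58979622 on the plus strand, H2-Ea-ps at chr17:34481469-34481528 on the minus strand, Mgst3 at chr1:169303928-169303987 on the minus strand and Folr2 at chr7:108988771-108988830 on the minus strand. The AA414992 probe lies at chr13:68321651-68321710 on the plus strand and that of CJ206177 at chr13:68137962-68138021 on the minus strand. Capitals mark bases at which 2 neighbouring probes differ.
Nuggc: ctttcgtctaaagagatgaaaataggcctg
Ctse: gacctgtttttacagttggtttatttgtat
Ifi202b: ctgctcaaatataatacatacaacatccag
Cebpe: attgggaaggtcgggaccaaatgattctgt
Trim12a: catagctaagggctgtcacttacatcaggt
Serpina12: gtacaatattttcccaggatagttaacaag
Serpina3i: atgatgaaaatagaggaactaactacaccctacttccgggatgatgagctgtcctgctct
Ntrk2: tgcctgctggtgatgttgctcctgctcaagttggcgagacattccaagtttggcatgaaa
H2-Ea-ps: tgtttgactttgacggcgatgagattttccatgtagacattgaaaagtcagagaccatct
Mgst3: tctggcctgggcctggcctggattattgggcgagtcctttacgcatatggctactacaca
Folr2: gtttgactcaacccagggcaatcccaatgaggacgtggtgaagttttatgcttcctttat
AA414992: ggcGcctactctatcttgggtgaTcttcat
CJ206177: ggcAcctactctatcttgggtgaCcttcat
The probes of AA414992 and CJ206177, unnamed transcripts on chromosome 13, differ at 2 of their 60 bases, G4A and T24C, counted from 1 at the 5′ end with the base of AA414992 first, so the same RNA may bind both. The probes were not set against the DBA genome, and mismatches there were not tested.

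DBA and B6 livers differed in 3179 of 20132 genes tested (15.8%), with 1511 higher in DBA (7.51% of genes) and 1668 lower (8.29%). The 4 DBA and 4 B6 values did not overlap for 4035 genes (20%), of which 2879 were also past the threshold. The median difference over all genes was 0.01, while the median of the genes past the threshold was 0.82 for those higher in DBA and -0.86 for those lower. Differences over 4-fold were found for 191 genes higher in DBA and 217 lower. The liver of 1 strain gave a signal well above background on 4 of 4 arrays and that of the other on 0 of 4 for 49 genes higher in DBA and 160 genes lower. These counts rest on the deposited flag that also chose the genes tested, and probe mismatches to the DBA genome were not tested. Among genes well above background on all 8 arrays, 1367 past the threshold were higher in DBA and 1349 lower. In this whole-liver RNA, fewer cells of a type and less RNA per cell cannot be told apart.

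Among genes found in DBA but on no B6 array, the largest bounds belonged to Nuggc, a nuclear GTPase known from germinal centre B cells, and Ctse, the endosomal protease cathepsin E. Nuggc (chromosome 14) had levels of 2.77, 2.49, 2.28 and 2.59 in DBA, against -5.48, -4.86, -4.62 and -5.35 in B6, where no array was well above background. The bound on the excess in DBA was at least 115-fold (adjusted p = 5.56e-14). Ctse (chromosome 1) had 1.75, 2.21, 2.39 and 2.10 in DBA, against -6.29, -6.18, -5.85 and -5.99 in B6, at least 86.2-fold higher (adjusted p = 7.39e-14). Both were tightly grouped within DBA and far from every B6 mouse. Ifi202b, an interferon-inducible protein of the p200 family, was at least 65.5-fold higher, Gm5067 at least 57.4-fold, and Corin, the protease that activates natriuretic peptide, at least 27.1-fold. Serpina3a, a serine protease inhibitor, was at least 22.1-fold higher. The alpha-defensins, antimicrobial peptides of intestinal Paneth cells, behaved less evenly. Defa38 had levels of 0.54, -1.65, 0.07 and 2.47 in DBA, against -6.19, -6.05, -6.50 and -5.84 in B6, at least 25.5-fold higher (adjusted p = 5.64e-08). Defa29 gave nearly the values of Defa38 in every mouse and was at least 24.4-fold higher, and its probe shares a run of 44 bases with one for Defa42. Whether the probes of Defa38 and Defa29 read the same RNA was not tested. Within DBA the defensin values spanned more than 4 log2 units, with DBA 15 highest and DBA 9 lowest.

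**Figure D1:**
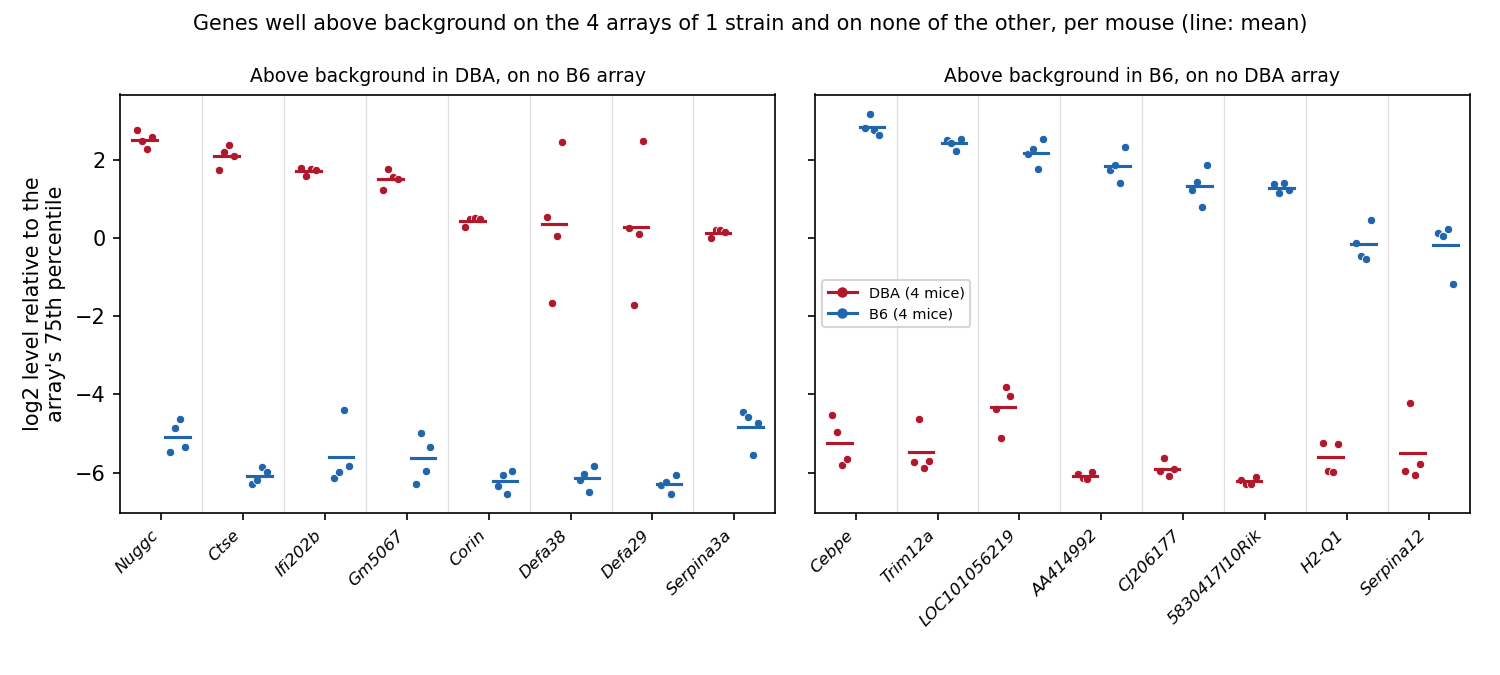
Log2 level relative to the array's 75th percentile (vertical axis) in each DBA mouse (red, left of each pair) and each B6 mouse (blue, right) for the 8 genes with the largest bound in each direction, with the strain mean as a line. Nuggc lies between 2.28 and 2.77 in DBA and Cebpe between 2.64 and 3.20 in B6, while levels near -4 to -6 are not well above background.

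In the other direction the largest bound was that of Cebpe, a transcription factor of granulocyte maturation on chromosome 14. Its levels were -4.53, -4.95, -5.81 and -5.66 in DBA, none well above background, against 2.82, 3.20, 2.77 and 2.64 in B6, so it was at least 120-fold lower in DBA (adjusted p = 1.32e-12). Trim12a (chromosome 7), of the TRIM family of antiviral ubiquitin ligases, had -5.73, -4.63, -5.88 and -5.70 in DBA, against 2.52, 2.44, 2.25 and 2.55 in B6, at least 89.9-fold lower (adjusted p = 2.33e-14). Its second probe moved the same way by -4.34. No DBA mouse approached the B6 values of either gene. Serpina12 (chromosome 12), the secreted protease inhibitor vaspin, known as an insulin-sensitising adipokine, had -5.95, -4.21, -6.06 and -5.77 in DBA, against 0.15, 0.05, 0.24 and -1.16 in B6. It was at least 14.6-fold lower in DBA (adjusted p = 5.84e-09), although B6 15 lay more than 1 log2 unit below the other B6 mice. H2-Q1, a class I histocompatibility gene, was at least 14.9-fold lower. The bounds were at least 73.4-fold for LOC101056219, 60.1-fold for AA414992, 42.1-fold for CJ206177 and 40.9-fold for 5830417I10Rik, transcripts without a described role here.

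Genes well above background on all 8 arrays also held large differences. Crym, a thyroid hormone binding protein, had levels of 2.01, 2.81, 3.03 and 2.80 in DBA, against -2.24, -2.35, -2.72 and -2.70 in B6, a difference of 5.17 ± 0.19 (adjusted p = 1.32e-12). Rassf4, a Ras-association domain protein, differed by 5.19 ± 0.38, and Ntrk2, the receptor TrkB for brain-derived neurotrophic factor, by 4.52 ± 0.41. The Ntrk2 values were 3.94, 4.16, 4.13 and 4.17 in DBA, against -0.16, -0.62, -1.07 and 0.15 in B6, with no overlap, and its second probe gave 4.17. Adgrv1, an adhesion receptor, differed by 3.87 ± 0.46. Folr2 on chromosome 7, the folate receptor of macrophages, was among the strongest in the other direction, with -2.24, -2.40, -2.39 and -2.25 in DBA, against 2.47, 2.61, 2.58 and 2.78 in B6, a difference of -4.93 ± 0.17 (adjusted p = 6.73e-13). Pttg1, the securin of chromosome separation, differed by -3.66 ± 0.14, and its second probe gave -3.37. Car8, a carbonic anhydrase related protein, differed by -3.45 ± 0.30 and Trim34a by -3.57 ± 0.26. For Trim34a and for Tox4, which differed by 3.91 ± 0.20, a second probe gave -0.33 and -0.23 and did not pass the threshold.

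The share of genes past the threshold varied along the chromosomes. By chromosome the share ranged between 8.22% on X and 19.6% on chromosome 1. Of 826 windows of 2 Mb with at least 8 genes, 5 had over 50% of their genes past the threshold and 116 had none, with a median of 13%. The densest was chromosome 1 from 174 to 176 Mb, where 7 of 33 genes were higher in DBA and 16 lower (69.7%). Not all of these are separate genes, since some of the lower ones are transcripts named only by coordinates within the Ifi200 cluster. The probe of such a transcript, at -1.36, has the same position as that of Ifi207, which gave -0.43 and did not pass. Igsf9, counted as higher at 1.66, gave -2 at its second probe. The window holds Apcs, serum amyloid P component, a plasma protein of the pentraxin family, and the Ifi200 cluster of interferon-inducible DNA sensors. Apcs had levels of 6.12, 6.09, 5.95 and 6.30 in DBA, against 3.44, 3.74, 3.76 and 4.71 in B6, a difference of 2.20 ± 0.24 (adjusted p = 1.87e-06), with no overlap.

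Of 8 measured Ifi200 genes, 2 were higher in DBA (25%, against 7.51% of all genes) and 5 lower (62.5%, against 8.29%). The median difference was -1.87, and the counts did not move when any 1 mouse was left out. The higher ones were Ifi202b, with levels of 1.81, 1.59, 1.78 and 1.75 in DBA, against -6.15, -5.98, -4.41 and -5.84 in B6, and Ifi208. Mndal was lower at -5.88 ± 0.41, well above background on 1 of 4 DBA arrays and 4 of 4 B6 arrays, and at -2.34 after normexp background correction. Pydc4 was at least 4.4-fold lower. The genes of this family resemble each other, and their probes disagreed. For Ifi203 the brightest of 4 probes gave -4.22 ± 0.28, and the next 3 gave 0.57, 1.29 and -2.41. For Ifi208, counted as higher at 1.3, the other 3 probes gave -2.68, -1.54 and -2.77. Both probes of Ifi202b were higher in DBA, and the 2 probes of Ifi204 gave -1.17 and -1.28. The list mean was -1.60 to -1.08 in DBA and -0.46 to 0.04 in B6, where B6 9 was the lowest.

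Chromosome 13 between 68 and 70 Mb held AA414992, CJ206177, LOC101056219 and Gm7969, all lower in DBA, with 1 gene of 15 higher and 7 lower (53.3%). Gm7969 had levels of -2.75, -2.68, -2.41 and -1.19 in DBA, against 4.86, 4.67, 4.44 and 5.17 in B6, a difference of -7.04 ± 0.55 (adjusted p = 3.5e-08), and its second probe gave -6.63. Because their probes share most bases, AA414992 and CJ206177 cannot be counted as separate differences. Chromosome 5 from 72 to 74 Mb ran the other way, with 7 of 14 genes higher in DBA and 0 lower, led by Corin and by Fryl at 2.05 ± 0.20, whose second probe gave -0.02.

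Of 10 measured genes at which the strains are known to carry different alleles, 7 passed the threshold, 5 higher in DBA and 2 lower. The same numbers were found when any 1 mouse was left out. Alad, the second enzyme of haem synthesis, and Glo1, glyoxalase 1, are both known to lie in duplicated segments in DBA/2J. Glo1 had levels of 7.63, 7.69, 7.96 and 7.77 in DBA, against 6.49, 6.53, 6.58 and 6.49 in B6, a difference of 1.24 ± 0.09 (adjusted p = 7.96e-09), and Alad differed by 1.62 ± 0.10 (0.66 at its second probe, not past the threshold). Hc, complement C5, is known to carry a frameshift deletion in DBA/2J. Its levels were 6.50, 6.95, 6.74 and 6.70 in DBA, against 8.69, 8.71, 8.80 and 8.89 in B6, a difference of -2.05 ± 0.11 (adjusted p = 1.56e-10). Klrd1, the NK cell receptor subunit CD94, is known to be lost in DBA/2J, and it was at least 2.02-fold lower. H2-Ea-ps, class II E alpha, is silent in the b haplotype of C57BL/6, and its levels were -2.06, -2.40, -2.19 and -1.88 in DBA, against -6.07, -5.95, -6.42 and -5.83 in B6, at least 4.54-fold higher. Nnt, the mitochondrial transhydrogenase, which has an exon deletion in C57BL/6J, was higher in DBA by 1.70 ± 0.13, and its 3 probes gave 1.70, 0.51 and 3.20. Nnt was at 0.55 with adjusted p = 0.164 in the authors' value table. That table lacks some probes, so the probe of Nnt read there may be another. Ahr and Apoa2, whose alleles also differ, gave 0.20 and 0.12 and did not pass.

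**Figure D2:**
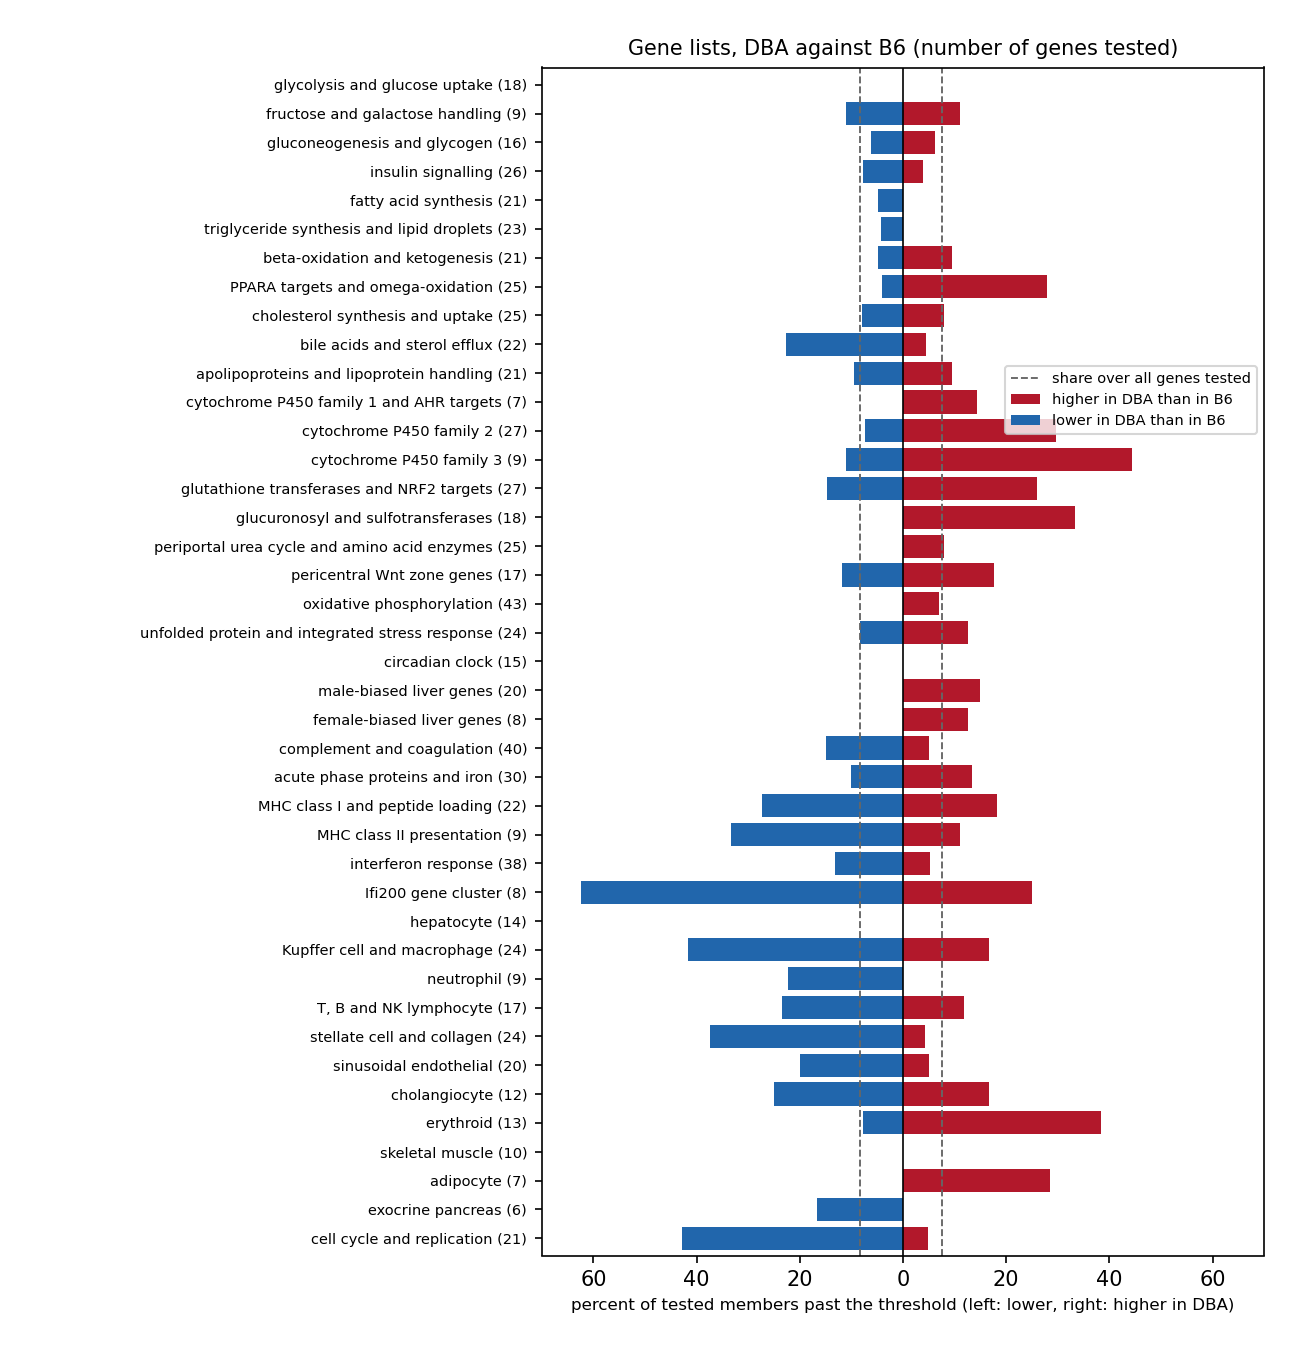
Share of the tested members of each gene list that were higher in DBA (red, right) or lower (blue, left), in percent, with the number of genes tested in brackets and dashed lines at the shares over all genes, 7.51% higher and 8.29% lower. Fatty acid synthesis lies under both lines, while the Kupffer cell and macrophage list has 10 of 24 genes lower.

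Of 18 glycolysis and glucose uptake genes, 0 passed the threshold in either direction, where 15.8% of all genes did. The count was 1 higher when DBA 5 was left out, and 3 lower with quantile normalization. Of 16 gluconeogenesis and glycogen genes, 1 was higher (2 without DBA 5) and 1 lower (3 with quantile normalization), 12.5% of the list. Ppp1r3b, the liver subunit that targets protein phosphatase 1 to glycogen, had levels of 8.72, 8.54, 8.93 and 8.77 in DBA, against 7.43, 7.61, 7.10 and 7.50 in B6. It differed by 1.33 ± 0.17 (adjusted p = 1.32e-05), with every DBA mouse above every B6 mouse. Pygl, glycogen phosphorylase, was lower at -0.43 ± 0.11 (adjusted p = 0.0111). G6pc and Pck1, named after their values were seen, gave 0.24 and 0.26 and did not pass. Sord, sorbitol dehydrogenase, was lower at -0.59 ± 0.12, and Slc2a5, the fructose transporter, was higher by 0.95 with overlapping mice. The Slc2a5 call ended without DBA 9, DBA 8, B6 9, B6 10 or B6 11, with adjusted p between 0.0537 and 0.0877, and with scan day as a block (adjusted p = 0.065).

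Of 26 insulin signalling genes, 1 was higher in DBA (2 without DBA 5) and 2 were lower. Igfbp1, an IGF binding protein whose gene insulin represses, had levels of 5.88, 4.24, 4.44 and 5.34 in DBA, against 6.38, 7.56, 6.26 and 7.30 in B6, a difference of -1.90 ± 0.49 (adjusted p = 0.0105). No DBA mouse reached the B6 range. With scan day as a block the difference was -1.81 with adjusted p = 0.0668, and without the mice of the third scan day -1.81 with adjusted p = 0.0762. Trib3, a stress-induced pseudokinase that binds AKT, was higher by 1.29 ± 0.29, with 2.67, 3.47, 3.91 and 2.75 in DBA, against 1.66, 2.21, 1.39 and 2.37 in B6. The third was Serpina12, described above.

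In fatty acid synthesis 1 of 21 genes was lower and 0 higher (1 without B6 9 or B6 10), with a list median of -0.18. That gene was Scd1, the desaturase that makes oleate. Its levels were 4.14, 2.98, 3.24 and 4.19 in DBA, against 6.65, 6.36, 5.54 and 6.08 in B6, a difference of -2.53 ± 0.53 (adjusted p = 0.00217), and the strains did not overlap. Fasn and Srebf1, named after their values were seen, gave -0.09 and 0.28 and did not pass. Of 23 triglyceride and lipid droplet genes, 1 was lower, the droplet protein Fitm1 at -1.60 ± 0.43 (-1.42 with adjusted p = 0.0956 with slide as a random block). Of 21 beta-oxidation and ketogenesis genes, 2 were higher, among them Acat1 at 0.53, and 1 lower, the carnitine carrier Slc25a20 at -0.60. The count of higher genes was 6 without DBA 5, 1 without any 1 of the other mice, and 0 with scan day as a block, where Acat1 was at 0.44 with adjusted p = 0.143. The Slc25a20 call ended without DBA 9, B6 9 or B6 10, with adjusted p between 0.0545 and 0.0929.

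Among targets of the fatty acid sensor PPARA, with the omega-hydroxylases of the Cyp4a family, higher genes outnumbered lower ones. Of 25 genes, 7 were higher in DBA (28% against the background of 7.51%) and 1 lower (2 without DBA 5), with a median of 0.34, and the list median was 0.18 and 0.42 on the shared scan days. Cyp4a14 had levels of 1.20, 3.36, 4.11 and 2.29 in DBA, against -0.45, 0.36, -1.31 and -0.35 in B6, a difference of 3.18 ± 0.78 (adjusted p = 0.00781). DBA 8 was highest and DBA 5 lowest, above all B6 mice. Without the mice of the third scan day the difference was 2.71 with adjusted p = 0.0876. Cyp4a10 had 4.79, 5.58, 6.25 and 4.49 in DBA, against 3.25, 3.84, 2.69 and 3.59 in B6, a difference of 1.94 ± 0.44 (adjusted p = 0.00473, and 0.0534 with scan day as a block). Cyp4a31 followed it at 1.93 ± 0.43. Further probes gave 1.69 and 1.93 for Cyp4a10 and 1.73 and 2.03 for Cyp4a31, and whether those bind the same RNA was not tested. The brightest probes of these 2 genes share a run of 34 bases, so at these probes the genes cannot be read apart. The run begins as printed here (mm9 probe of Cyp4a10 at chr4:115206200-115206259 on the plus strand).
Cyp4a10: agtttctccatcttccctcctttctgcaat
Cyp4a12a, a male-biased member, was even within each strain, with 6.43, 6.38, 6.52 and 6.53 in DBA, against 5.13, 4.85, 4.87 and 4.85 in B6 (difference 1.54 ± 0.16, adjusted p = 1.52e-06). The fatty acid transporter Slc27a2 was higher by 0.93 ± 0.17, and the peroxisomal thiolases Acaa1b and Acaa1a by 0.77 ± 0.15 and 0.68 ± 0.12. These 3 lie outside the rule for named genes and complete the count.

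**Figure D3:**
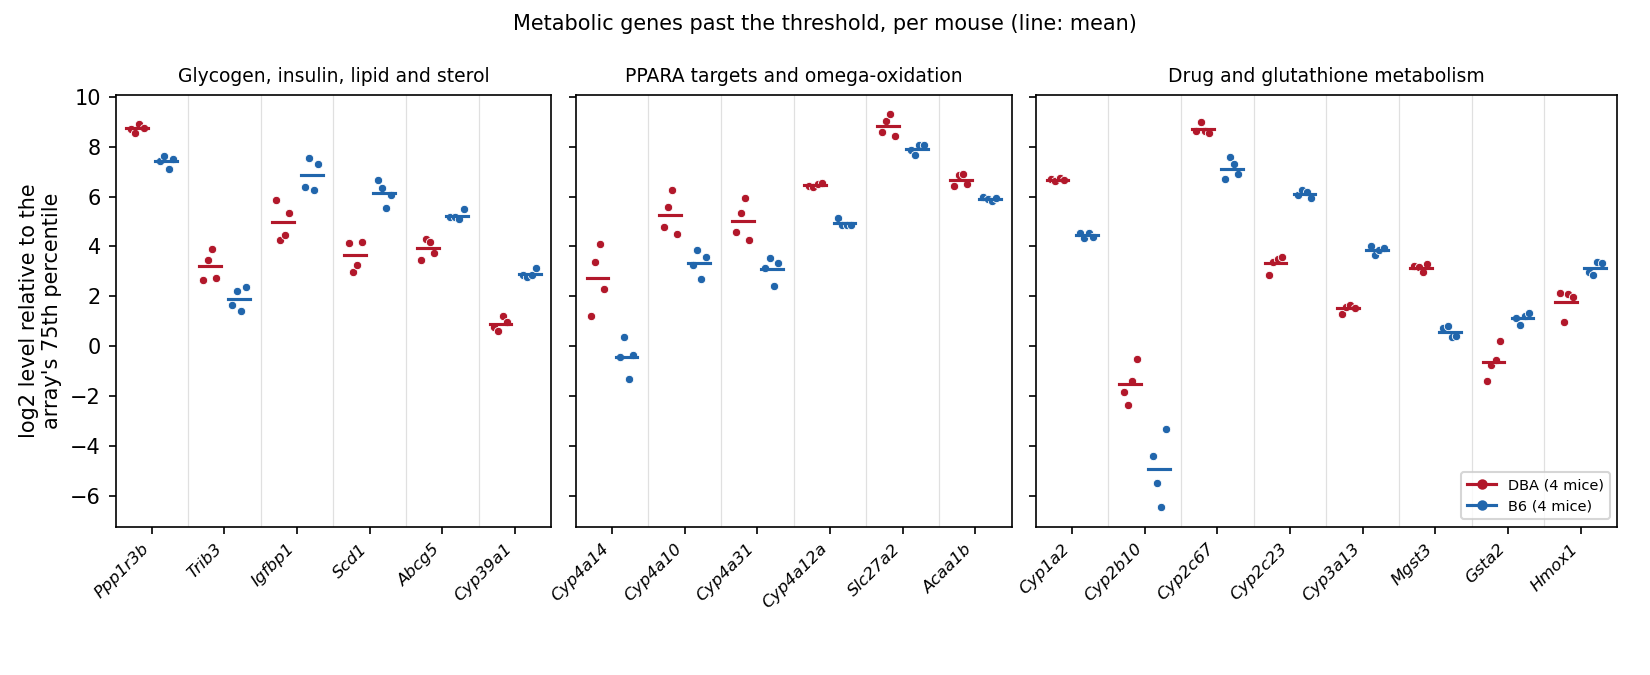
Log2 level relative to the array's 75th percentile in each DBA mouse (red, left of each pair) and each B6 mouse (blue, right), with the strain mean as a line, for genes of glycogen, insulin, lipid, sterol, PPARA and drug metabolism. Cyp1a2 lies between 6.61 and 6.73 in DBA and between 4.35 and 4.54 in B6, while Cyp4a14 spreads over 1.20 to 4.11 in DBA.

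Sterol synthesis did not separate the strains in 1 direction, while among bile acid and sterol efflux genes those lower in DBA outnumbered higher ones. Of 25 cholesterol synthesis and uptake genes, 2 were higher (Msmo1 at 0.59 and Acat2 at 0.35) and 2 lower (Hmgcs1 at -0.75 and Sc5d at -0.57). All 4 calls were lost when single mice were left out, among them DBA 8, without which Acat2, Sc5d and Hmgcs1 had adjusted p = 0.133, 0.135 and 0.118, and B6 11, without which Msmo1 had adjusted p = 0.153. Of 22 bile acid and sterol efflux genes, 5 were lower in DBA (22.7% against 8.29%) and 1 higher, and 5 were lower whichever mouse was left out. Cyp39a1, the hydroxylase of 24-hydroxycholesterol, had levels of 0.77, 0.60, 1.19 and 0.97 in DBA, against 2.87, 2.76, 2.86 and 3.15 in B6, a difference of -2.03 ± 0.35 (adjusted p = 0.000362). Abcg5, a subunit of the canalicular sterol transporter, had 3.47, 4.31, 4.18 and 3.75 in DBA, against 5.17, 5.18, 5.11 and 5.49 in B6, a difference of -1.31 ± 0.23 (adjusted p = 0.000506). Abcg8, its partner, named after its value was seen, gave 0.26 and did not pass. The basolateral bile salt exporter Abcc4 was lower at -1.40 ± 0.21, the canalicular exporter Abcc2 at -0.47 ± 0.10 and the uptake carrier Slco2b1 at -0.43 ± 0.10. The second probe of Slco2b1 gave 0.43 and did not pass. Abcc3, another basolateral exporter, was higher by 0.64 ± 0.17, a call lost without DBA 8 (0.54, adjusted p = 0.0544) and with scan day as a block (0.42, adjusted p = 0.0891). Cyp7a1, the rate-limiting enzyme of bile acid synthesis, also named after its values were seen, had 1.81, 3.49, 2.85 and 0.41 in DBA, against 0.93, -0.13, 1.19 and 1.68 in B6. The mice overlapped and it did not pass (adjusted p = 0.345). Of 21 apolipoprotein and lipoprotein genes, 2 were higher, Mttp, which loads lipid onto apolipoprotein B, at 0.63 ± 0.14, and Apoh at 0.45 ± 0.10. Apoh was at 0.19 with adjusted p = 0.215 after quantile normalization, and both calls ended without the mice of the third scan day (Mttp adjusted p = 0.0677, Apoh adjusted p = 0.0515). The 2 lower ones were Apom at -0.59 ± 0.09 and the editing enzyme Apobec1 at -0.76 ± 0.19.

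Among drug-metabolising enzymes, genes higher in DBA outnumbered lower ones. Cyp1a2, the main CYP1 enzyme of liver and a classical target of the aryl hydrocarbon receptor, had 6.72, 6.61, 6.73 and 6.68 in DBA, against 4.53, 4.35, 4.54 and 4.39 in B6, a difference of 2.23 ± 0.12 (adjusted p = 2.31e-10). It was the only one of 7 genes of its list past the threshold (2 without DBA 5). In the CYP2 family 8 of 27 genes were higher in DBA (29.6%) and 2 lower, with a list median of 0.21 and 7 to 9 higher with any 1 mouse left out. Among those counted as higher was Cyp2u1, named after its values were seen, at 0.94. Its other probes gave -0.02 and 0.10, and its brightest probe shares a run of 32 bases with that of Hemgn. Cyp2b10, a classical target of the receptor CAR, had -1.85, -2.37, -1.41 and -0.51 in DBA, against -4.41, -5.50, -6.45 and -3.34 in B6, where 1 of 4 arrays was well above background, a difference of 3.39 ± 0.65 (adjusted p = 0.000977), and of 0.76 after normexp background correction. Cyp2g1 was higher by 2.43 ± 0.48 and Cyp2c67 by 1.58 ± 0.18, the probe of Cyp2c67 sharing 25 bases with that of Cyp2c68. Cyp2c23, an epoxygenase of arachidonic acid, went the other way, with 2.86, 3.36, 3.50 and 3.58 in DBA, against 6.08, 6.27, 6.17 and 5.95 in B6 (difference -2.79 ± 0.19, adjusted p = 4.69e-09). Without DBA 9 or without DBA 8 the lower count was 1.

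In the CYP3 list, which holds the receptor genes too, 4 of 9 genes were higher and 1 lower, with a median of 0.61. Cyp3a44 had levels of -0.09, -1.15, -1.41 and 2.31 in DBA, against -5.27, -4.97, -5.24 and -4.62 in B6, all at background, so it was at least 18.8-fold higher (adjusted p = 2.16e-05). DBA 15 lay more than 2 log2 units above the other DBA mice, and the probe shares 23 bases with that of Cyp3a41b. Cyp3a25 was higher by 1.43 ± 0.20, and Cyp3a59 by 1.24 ± 0.20, whose second probe gave 0.34 and did not pass. The receptor gene Nr1i3, which encodes CAR, was higher by 0.65 ± 0.18. Cyp3a13 was lower, with 1.29, 1.58, 1.66 and 1.52 in DBA, against 4.0, 3.65, 3.86 and 3.93 in B6 (difference -2.34 ± 0.16, adjusted p = 7.79e-09), and by -2.19 at its second probe.

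Of 27 glutathione transferase and NRF2 target genes, 7 were higher (25.9%) and 4 lower, with a median of 0.05. The count of higher genes was 4 without DBA 15 and 3 with scan day as a block, and the lower count was 4 whichever mouse was left out. Mgst3, a microsomal glutathione transferase on chromosome 1, had 3.20, 3.16, 2.96 and 3.29 in DBA, against 0.71, 0.80, 0.36 and 0.42 in B6, a difference of 2.58 ± 0.16 (adjusted p = 1.37e-09), and 2.35 at its second probe. Gstt2 was higher by 1.28 ± 0.18 and Gsta4, which detoxifies 4-hydroxynonenal, by 1.14 ± 0.11. The lower genes included classical NRF2 targets. Hmox1, haem oxygenase 1, had 2.12, 0.96, 2.11 and 1.96 in DBA, against 2.96, 2.87, 3.36 and 3.32 in B6, a difference of -1.34 ± 0.24 (adjusted p = 0.000518), with DBA 9 about 1 log2 unit below the other DBA mice. Its second probe gave -0.62 and did not pass. Gsta2 was lower at -1.75 ± 0.33 and Gclm, the modifier subunit of glutamate-cysteine ligase, at -0.71 ± 0.12. The probe of Gsta2 shares a run of 30 bases with one for Gm10639. Of 18 glucuronosyl and sulfotransferase genes, 6 were higher (33.3%, against 7.51% of all genes) and 0 lower. The counts of higher genes were 4 without DBA 8 or without B6 15, and 1 without the mice of the third scan day. The largest was the oestrogen sulfotransferase Sult1e1 at 2.25 ± 0.54, with -0.90, -0.52, 0.36 and -0.59 in DBA, against -2.12, -4.09, -2.78 and -1.65 in B6. With scan day as a block Sult1e1 was at 1.95 with adjusted p = 0.169, and without the mice of the third scan day at 1.95 with adjusted p = 0.084.

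Of 25 periportal urea cycle and amino acid genes, 2 were higher (1 without DBA 15 or B6 15) and 0 lower, and 1 of these 2, Pigr, has a probe that shares runs of at least 20 bases with 49 others. The other was Hpd at 0.34 ± 0.09, lost without DBA 15 (adjusted p = 0.062) or B6 15 (adjusted p = 0.0523). Of 17 pericentral genes, 3 were higher (17.6%, against 7.51% of all genes) and 2 lower (11.8%, against 8.29%). The higher ones included Cyp1a2 and the retinal dehydrogenase Aldh1a1 at 0.77 ± 0.15, and the lower ones glutamine synthetase, Glul, at -0.56 ± 0.15. The lower count was 0 without DBA 5 or B6 11, where Glul had adjusted p = 0.0501 and 0.0548. Of 43 oxidative phosphorylation genes, 3 were higher, among them Ndufb8 at 0.42 and Sdhd at 0.37, and 0 with scan day as a block, while 4 were lower with quantile normalization. Of 24 genes of the unfolded protein and integrated stress responses, 3 were higher (12.5%, against 7.51%) and 2 lower (8.33%, against 8.29%). The higher count was 1 without DBA 8 or B6 15. Members past the threshold included Trib3 at 1.29 and asparagine synthetase, Asns, at -1.30 ± 0.33 (adjusted p = 0.0564 without the mice of the third scan day). Of 15 clock genes 0 passed the threshold in either direction. Of 20 male-biased genes 3 were higher, among them Cyp4a12b at 1.66 ± 0.16, and of 8 female-biased genes 1, Cyp3a44.

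Among secreted liver proteins, complement and coagulation genes were lower in 6 of 40 cases (15%, against 8.29% of all genes), led by Hc. They were higher in 2 (5%, against 7.51%), and the list median was -0.08. Without DBA 9 or B6 15 the lower count was 5, and it was 12 with quantile normalization. Fga, fibrinogen alpha, was counted as higher at 0.93, while its second probe gave -1.42. Of 30 acute phase and iron genes, 4 were higher (13.3%, against 7.51%) and 3 lower (10%, against 8.29%), with Apcs at 2.20 first. The higher count was 2 when any 1 of DBA 9, DBA 8, DBA 15, B6 9, B6 10 or B6 11 was left out. Orm3 at 1.80, whose mice overlapped, was among those lost. Serpina3n had 5.91, 5.71, 5.94 and 5.80 in DBA, against 4.83, 4.70, 4.82 and 5.55 in B6, where B6 15 stood above the other B6 mice (difference 0.87 ± 0.16, adjusted p = 0.000636). Id1, a target of the BMP pathway that controls hepcidin, had -2.39, -1.56, -1.49 and -1.41 in DBA, against 0.38, 1.56, 0.84 and -0.04 in B6, a difference of -2.40 ± 0.43 (adjusted p = 0.000592). Ftl1, ferritin light chain, was lower at -0.66 ± 0.09, and Steap3, an endosomal ferrireductase on chromosome 1, at -2.27 ± 0.13, although the second probe of Steap3 gave 0.53.

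The hepcidin genes, named after their values were seen, separated 1 mouse rather than the strains. Hamp had levels of -3.54, 6.00, 4.40 and 3.70 in DBA, against 5.95, 6.41, 6.49 and 6.26 in B6 (difference -3.64 ± 1.31, adjusted p = 0.0715, not past the threshold). Hamp2 had 0.60, 7.63, 7.31 and 6.69 in DBA, against 4.77, 4.41, 4.35 and 5.78 in B6 (adjusted p = 0.748). DBA 5 was the lowest of all 8 mice in both, while the other 3 DBA mice lay above every B6 mouse for Hamp2.

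Histocompatibility genes differed in both directions. Of 22 class I and peptide loading genes, 4 were higher (18.2%, against 7.51% of all genes) and 6 lower (27.3%, against 8.29%). H2-K1 had 6.52, 6.64, 6.75 and 6.69 in DBA, against 8.42, 8.37, 8.38 and 8.56 in B6, a difference of -1.78 ± 0.09 (adjusted p = 6.34e-11), and its other 2 probes gave -1.29 and 1.21. DBA/2J and C57BL/6 carry different haplotypes of these genes, so probe binding and transcript level cannot be told apart here. H2-M2 was lower at -1.06 ± 0.12. Of 9 class II genes, 1 was higher, H2-Ea-ps, and 3 lower. H2-Aa, class II A alpha, had -1.68, -3.71, -2.81 and -2.22 in DBA, well above background on 3 of 4 arrays, against 1.03, 0.93, 1.05 and 2.48 in B6, a difference of -3.98 ± 0.39 (adjusted p = 7.19e-07). H2-Oa was lower at -1.76 ± 0.38, well above background on 1 of 4 DBA arrays and 4 of 4 B6 arrays, and at -0.38 after normexp background correction. H2-DMb1, at -0.94 ± 0.27, was not past the threshold without B6 15 (-0.65, adjusted p = 0.0762), DBA 9 (adjusted p = 0.0657) or DBA 8 (adjusted p = 0.0528). B6 15 had the highest class II list mean, 1.04, while DBA ranged over -0.71 to 0.08 and the remaining B6 mice over 0.14 to 0.26. H2-Ab1, H2-Eb1 and Cd74, named after their values were seen, gave -0.82, -0.16 and -0.50 and did not pass.

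Of 38 interferon response genes, 2 were higher and 5 lower, 18.4% of the list against 15.8% of all genes. Without DBA 9 or without B6 15 the lower count was 3, and the higher count was 0 without B6 9 or B6 11 and 1 without any 1 of the other mice. Ifi27l2b was lower at -1.03 ± 0.22. Xaf1, counted as lower at -0.73, had a second probe with 7.73 in the opposite direction, and its call ended without DBA 9 or B6 15 (adjusted p = 0.0539 and 0.0530).

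Among markers of macrophages, stellate and endothelial cells, genes lower in DBA outnumbered higher ones. Of 24 Kupffer cell and macrophage genes, 10 were lower (41.7% against 8.29%) and 4 higher, with a median of -0.36, which was -0.55 and -0.33 on the shared scan days. The lower count was 7 without B6 15, 8 with scan day as a block and 7 without the mice of the third scan day. The higher count was 2 without DBA 9, DBA 15, B6 9 or B6 11. Beyond Folr2, the lipid-associated macrophage receptor Trem2 had -2.73, -1.76, -1.73 and -1.54 in DBA, against 0.12, -0.09, 0.38 and -0.12 in B6, a difference of -2.01 ± 0.36 (adjusted p = 0.000529). Spp1, osteopontin, had -0.44, -0.15, -0.08 and -0.10 in DBA, against 1.51, 1.34, 1.83 and 2.28 in B6, a difference of -1.93 ± 0.17 (adjusted p = 1.98e-07). The resident Kupffer cell genes Cd5l, Clec4f and Adgre1, named after their values were seen, were lower at -1.03, -0.76 and -0.67, while Vsig4 and Timd4 gave -0.22 and -0.25 and did not pass. Cx3cr1, the fractalkine receptor, was higher by 1.59 ± 0.33, and by 1.53 and 1.68 at its other probes. The list mean was 1.33 to 1.48 in DBA and 1.83 to 2.26 in B6, and without Folr2 it was 1.49 to 1.64 in DBA and 1.80 to 2.24 in B6.

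Of 24 stellate cell and collagen genes, 9 were lower (37.5%) and 1 higher (2 without DBA 5 or B6 9), with a list mean of 0.67 to 0.79 in DBA and 1.03 to 1.06 in B6. The lower count was 5 without DBA 9 and 5 with scan day as a block. Col1a1, the alpha 1 chain of type I collagen, had 0.25, -0.65, -0.51 and -0.28 in DBA, against 1.29, 0.92, 1.21 and 1.70 in B6, a difference of -1.58 ± 0.28 (adjusted p = 0.000493). Lrat, which esterifies retinol in stellate cells, had -1.49, -0.93, -0.40 and -1.37 in DBA, against -0.14, 0.03, 0.42 and 0.34 in B6 (difference -1.21 ± 0.22, adjusted p = 0.000592). Timp1, the metalloproteinase inhibitor, was at least 2.54-fold lower (adjusted p = 0.065 without the mice of the third scan day). Of 20 sinusoidal endothelial genes, 4 were lower (20%, against 8.29% of all genes) and 1 higher (5%, against 7.51%). The list means overlapped, with 1.47 to 1.69 in DBA and 1.63 to 1.93 in B6. Dnase1l3 was lower at -1.32 ± 0.15 and the hyaluronan receptor Lyve1 at -1.93 ± 0.42 (adjusted p = 0.068 without the mice of the third scan day), while Stab2, counted as higher at 0.47, gave -2.27 at its second probe, and its call ended without DBA 9, DBA 8 or B6 15 (adjusted p = 0.0599, 0.0589 and 0.0507).

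**Figure D4:**
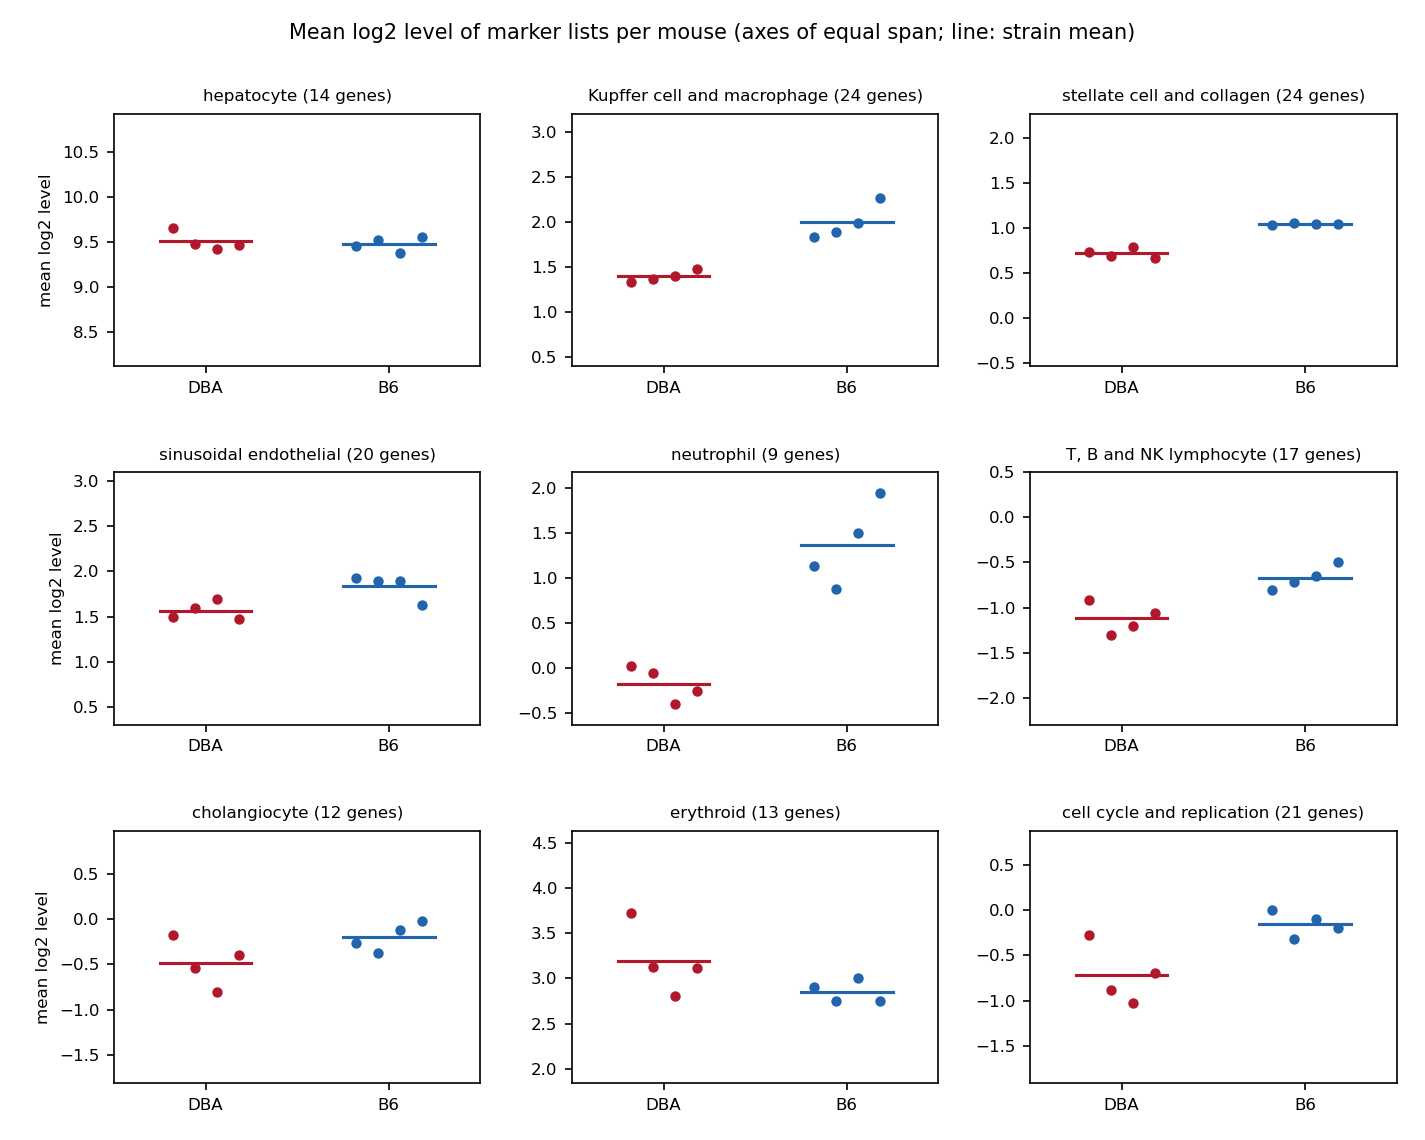
Mean log2 level of each marker list in each DBA mouse (red, left) and each B6 mouse (blue, right), with the strain mean as a line, on vertical axes of equal span. The hepatocyte means overlap at 9.38 to 9.66, the Kupffer cell and stellate cell means do not overlap, and the neutrophil gap includes Cebpe.

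Other marker lists were less uniform. Of 9 neutrophil genes, 2 were lower, Cebpe and Retnlg, and the list mean without Cebpe was 0.28 to 0.59 in DBA and 0.58 to 1.85 in B6, with overlap. Of 17 lymphocyte genes, 4 were lower and 2 higher (1 without DBA 5 or B6 9), the lower count being 1 without DBA 9 or B6 15 and 2 without DBA 8 or B6 11. Klrd1 was among the lower genes, and Cd22, a B cell receptor inhibitor, was higher at 0.94 ± 0.13. Of 12 cholangiocyte genes, 3 were lower (Tff3 at -2.17 ± 0.49, Spp1 and Prom1 at -0.71 ± 0.16) and 2 higher (Cftr at 1.43 ± 0.37 and Slc4a2 at 0.50 ± 0.11). The Tff3 call ended without the mice of the third scan day (adjusted p = 0.101), and that of Cftr after normexp background correction (0.38, adjusted p = 0.0537). Of 13 erythroid genes, 5 were higher (38.5%, against 7.51% of all genes) and 1 lower (7.69%, against 8.29%). The list median was 0.14, with 7 of 13 differences positive, and the higher count was 3 with scan day as a block. Hbb-b2, a beta globin, had 7.11, 5.56, 4.70 and 5.75 in DBA, against 3.85, 3.82, 3.79 and 3.44 in B6, a difference of 2.05 ± 0.36 (adjusted p = 0.000409), highest in DBA 5, and Klf1, the erythroid Krüppel-like factor, was higher by 1.15 ± 0.22. The strains are known to carry different beta globin haplotypes, and the probe of Hemgn, also counted, shares runs of at least 20 bases with 51 others. Of 10 skeletal muscle genes 0 passed in either direction. Of 7 adipocyte genes 2 were higher, the beta 3 adrenergic receptor Adrb3 at 1.60 ± 0.22 and Car3 at 0.79 ± 0.11, and of 6 exocrine pancreas genes 1 was lower, Cela2a.

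Of 21 cell cycle and replication genes, 9 were lower in DBA (42.9%) and 1 higher, with a median of -0.64, and the median was -0.37 and -0.11 on the shared scan days. The lower count was 5 without DBA 8, 6 with scan day as a block and 4 without the mice of the third scan day. Mcm6, a subunit of the replicative helicase, had 1.96, 0.62, 0.41 and 1.45 in DBA, against 3.07, 2.78, 2.87 and 2.80 in B6, a difference of -1.77 ± 0.30 (adjusted p = 3e-04), with no overlap. Cdc20, an activator of the anaphase-promoting complex, had -0.57, -1.58, -1.52 and -1.17 in DBA, against 0.77, 0.08, 0.36 and 0.37 in B6 (difference -1.60 ± 0.35, adjusted p = 0.00307). The mitotic kinase Plk1 was lower at -1.69 ± 0.29, well above background on 3 of 4 DBA arrays. Mcm3, from the same helicase as Mcm6, was the single higher gene at 1.06 ± 0.15, with -0.54 at its second probe. The part of macrophage, stellate and lymphocyte markers in this result was not tested. DBA 5 had the highest mean of this list within DBA, -0.27, against -1.03 to -0.69 in the other 3 and -0.32 to 0.00 in B6.

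Most calls rest on 1 probe, since 14717 of the 20132 genes had no other probe that passed the filter. Among genes higher in DBA with a second probe, that probe had the same sign in 311 of 420 (74.0%), and among lower genes in 339 of 404 (83.9%). For genes not past the threshold the share was 2998 of 4591 (65.3%). Same sign and past the threshold were 163 higher genes (38.8%) and 187 lower genes (46.3%). The second probe was past the threshold in the opposite direction for 37 higher and 19 lower genes. Serpina3i and Serpina3f are examples, since these protease inhibitors of the chromosome 12 cluster were among the largest differences at their brightest probe. Serpina3i had 3.39, 3.29, 3.07 and 3.12 in DBA, against -1.78, -1.69, -1.45 and -1.33 in B6, a difference of 4.78 ± 0.20 (adjusted p = 6.04e-12), and -1.93 at its second probe. Serpina3f gave 4.20 ± 0.17 at the first and -2.64 at the second. Over 4-fold, the second probe had the same sign in 36 of 47 higher genes (76.6%) and 32 of 39 lower genes (82.1%).

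**Figure D5:**
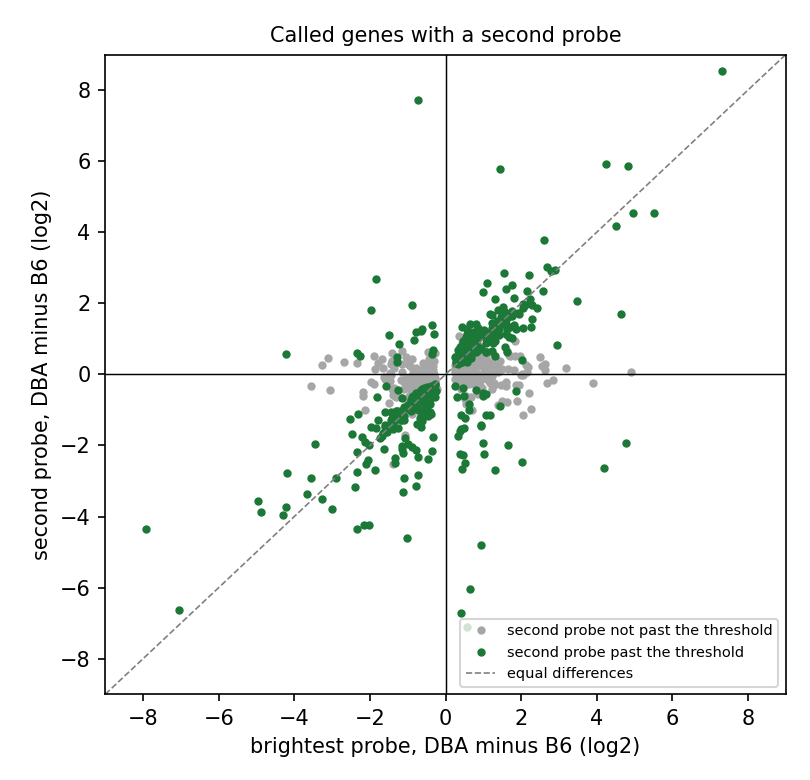
Difference of DBA minus B6 (log2) at the brightest probe (horizontal axis) and at the second probe (vertical axis) for the genes past the threshold that have a second probe, green where that probe passed too, with a dashed line at equal differences. Many points lie near the line, a band with a second difference near 0 runs beside it, and 37 higher and 19 lower genes have an opposite second call.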

How the data were processed

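RNA of whole liver from 20 mice was hybridised to Agilent arrays with 1 dye. The spot intensities are Feature Extraction output as deposited (software 11.0.1.1 for DBA, B6 and NZO, and 11.5.1.1 for the others, per the file headers), with background already subtracted. The flags that a spot is well above background are also deposited calls. No gene was used from a control spot, and 55642 probes were kept. Levels are log2 of the processed intensity deposited by the authors minus the array's 75th percentile. A probe was tested if well above background on all 4 arrays of DBA or of B6, and a gene by its brightest probe. limma 3.58.1 in R 4.3.3 fitted a mean per strain to all 20 arrays, with Benjamini-Hochberg adjustment over 20132 genes at 0.05, and was tested on simulated data. Every p in the text comes from limma, in this fit or, where the sentence names another setting or a mouse left out, in that one. A gene with no array of 1 strain above background has only a bound, set against the higher of its own signal and the lowest signal well above background. The scale of the deposited value table, an alternative with log2 taken after adding 1, is not given in the sources used here. It holds 37892 probes, and each gene was read there by its brightest tested probe among them. Each column had a median of 19.9, and its rank correlation with its own array was at least 0.955. Nothing says whether mice were littermates, and the number of arrays limits the precision.

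The text names genes from a set of 194, not all of which it describes. The set holds the 12 largest differences each way among genes above background on all 8 arrays and the 8 largest bounds each way. All of these were past the threshold without overlap. It also holds up to 4 members of each list and up to 4 genes of each of the 12 windows with the highest share. Those were past the threshold, but their mice could overlap. The known alleles were taken whether or not they passed. Abcc2, Acaa1a, Acaa1b, Ftl1, Gclm, Gsta4, Ifi204, Ifi208, Mcm3, Nr1i3, Slc27a2, Slc4a2 and Slco2b1 complete counts and were chosen after their values were seen. Members and lists were chosen with earlier results of these data known. The animal numbers 9 and 15 occur in both strains, but same-numbered mice did not deviate together (r = -0.31 and 0.01), so they do not pair the mice. Some members of the lists are not reported here.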

Additional observations from a re-analysis of the deposited data

Results flagged for a closer look

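In each strain of 4 mice, the highest or lowest mouse was compared with its nearest neighbour by Dixon's criterion at the 95% level. Of 392 groups checked (154 genes and 42 lists), 38 had a mouse apart. The genes are those of this text, some chosen after their values were seen, and many also belong to the lists. The count therefore cannot be set against the number that chance would give.

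B6 15 was the mouse most often apart. It was above the other B6 mice in the list means of acute phase and iron genes (5.98), class I genes (4.64) and class II genes (1.04), and below them in the sinusoidal endothelial mean (1.63). Among class II genes it was highest for H2-Aa (2.48), H2-Ab1 (5.43), H2-DMb1 (2.21), H2-Eb1 (5.09) and Cd74 (4.54). It was also highest for H2-M2 (6.44), Orm3 (1.22), Serpina3n (5.55) and Xaf1 (2.11), and lowest for Serpina12 (-1.16), Tox4 (-1.27) and Hbb-b2 (3.44).

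DBA 5 was the lowest DBA mouse for the acute phase and iron mean (5.06), Hamp2 (0.60), Id1 (-2.39), Corin (0.28) and Apobec1 (2.32), and the highest for Ifi204 (2.13). That mean was not recomputed without the hepcidin genes Hamp and Hamp2. DBA 9 was apart in the skeletal muscle mean (0.01), Cyp2c67 (9.01), Cyp2c68 (7.99), Clec4f (4.45), H2-M2 (4.86) and Hmox1 (0.96). It was also apart in Retnlg (-4.69), Serpina12 (-4.21) and Trim12a (-4.63), where all 4 DBA arrays were not well above background. DBA 15 was highest for Cyp3a41b (3.91), H2-Oa (-3.06) and Cela2a (-5.25). Among the remaining B6 mice, B6 9 was lowest in the Ifi200 mean (-0.46) and highest for Cyp4a12a (5.13), and B6 10 was lowest for Cx3cr1 (-1.63) and highest for Mttp (3.95).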

How the results depend on the processing

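The counts of 1511 higher and 1668 lower genes stayed within 1.5 times under other backgrounds, scalings, filters, probe rules and sets of arrays. Taking the percentile over probes detected on all arrays gave 1406 higher and 2145 lower (39.6% higher, against 47.5%). Scan day as a block gave 1145 and 1364, and slide as a random block 1304 and 1287. Leaving out 1 mouse gave 1233 to 1802 higher and 1395 to 1649 lower genes. Without the DBA mice of the third scan day, an alternative chosen after seeing the data, there were 988 and 1315. With the animal number as a replicate block, there were 656 higher and 701 lower genes, 1310 of them shared with the 3179. Of 194 named genes, 69 lost their call under that block, 39 with scan day as a block, 46 without the third day, and 6 to 19 without 1 mouse. Direction reversed for Fga (-0.25), Stab2 (-0.57) and Xaf1 (3.50) with the mean of all probes, and for Xaf1 (1.91) in the value table. That mean takes in second probes of opposite sign (Fga -1.42, Stab2 -2.27 and Xaf1 7.73). The value table lacks some probes, so Xaf1 may be read there by another probe than in the main fit. Why the probes of these genes differ, and which probe gave the Xaf1 value in the value table, was not tested.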
